A study of Mus musculus with 18 samples.

Results

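The genes described here encode the 5 enzymes of the urea cycle (Cps1, Otc, Ass1, Asl and Arg1) and 4 enzymes of periportal amino acid breakdown (Gls2, Hal, Sds and Tat). They were chosen by symbol, and all 9 have a row in both count tables of the series, which hold 38924 gene IDs for males and 23337 gene symbols for females. Liver RNA was sequenced as 1 library per mouse from 18 mice at 8 weeks of age, in 6 groups of 3. In the first experiment C57BL6J mice given low-dose penicillin (LDP) from birth, males 8, 10 and 11 and females 39, 52 and 54, were compared with control mice given no antibiotic, males 5, 6 and 7 and females 29, 30 and 32. They were weaned at week 4 onto normal chow, and from week 6 fat supplied 45% of their dietary energy. The other experiment used Swiss Webster females born germ-free and colonised at week 3. Recipients 2, 5 and 8 were given LDP microbiota, taken from LDP females, and recipients 1, 3 and 7 the microbiota of untreated females. The recipients also ate a diet with 45% of energy as fat and took no antibiotic themselves. The question was whether early penicillin, or the microbiota it selects, alters liver transcripts. The labels name no cage, litter or donor, so every p-value measures the spread between these mice only.

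The urea cycle turns ammonia, which reaches the liver from gut bacteria and from amino acid breakdown, into urea. Its enzymes, with those that release ammonia from glutamine, histidine and serine, are most abundant in hepatocytes around the portal vein, where blood from the gut enters the lobule. Their genes are known to respond to dietary protein, fasting, glucagon and glucocorticoids.

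Depth was 17937005 to 28646168 counts per library in the 12 females and 70336366 to 74418889 in the 6 males. The hepatocyte markers Alb, Apoa1 and Ttr were abundant in all 18 libraries, with at least 57317, 5784 and 3665 CPM (the usual per-library scaling of counts, here on TMM-scaled library sizes). In the female table the 9 genes together took from 0.611% of the counts in control female 29, the shallowest library, to 1.26% in control recipient 1. In the male table they took from 0.995% in LDP male 10 to 1.30% in LDP male 8. These shares include Ass1, so they are not compared between the tables. In whole liver, fewer cells of a type and less RNA per cell cannot be told apart.

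The row of Ass1, which joins citrulline and aspartate, has to be read apart from the others. In the female table Ass1 had 98 to 276 counts per library, against 64183 to 84673 in the male table, and the mean levels were 8.22 CPM in the 12 female libraries and 1015 CPM in the 6 male ones. Gm5424, a processed pseudogene of Ass1, is 99.5% identical to it over the 1239 coding bases, with 6 differences. It had 0 counts in every female library, against 2684 to 4008 in the males. The stretch shown here for both genes, coding bases 310 to 429, carries 2 of those differences, in capitals, with all other bases the same (GENCODE M21 transcripts, GRCm38). It lets the 2 genes be set side by side, and was chosen as the first 120-base coding stretch with the most differences. Ass1 lies at chr2:31481110-31488586 there, over exons 5 to 7 of 16, and Gm5424 at chr10:62071432-62071551, both on the plus strand.
Ass1: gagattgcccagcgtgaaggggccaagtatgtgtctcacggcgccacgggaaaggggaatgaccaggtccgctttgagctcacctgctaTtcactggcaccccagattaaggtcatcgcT
Gm5424: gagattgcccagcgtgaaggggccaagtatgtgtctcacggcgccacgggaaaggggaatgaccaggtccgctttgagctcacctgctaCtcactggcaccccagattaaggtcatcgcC

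Of all 50-base windows in the Ass1 transcript, 55.3% occur in another annotated gene's transcripts. The share was 28.9% for Sds, 0.610% for Hal and 0% for the other 6 genes. Windows were matched on either strand. Genes that overlap at the same place in the genome thus also count as sharing, and they were not set apart from repeated sequence. Among 6932 genes of at least 10 CPM in the male table, the female level was at least 16-fold lower for 20% of the 30 genes with 90% or more of their windows shared. It was so for 2.28% of the 1272 genes with 10 to 90% shared, Ass1 among them, and for 0.142% of the 5630 genes with less. Genes entered this count by their male level alone, so genes low in the male table were not looked at. Sex and table are the same split here too, and these shares are a description only. How reads with several matches were handled is not given in the sources used here, and the part of this sharing in the female Ass1 row was not tested. Changes of Ass1 within the female table are therefore given as values of that row, and the Ass1 values of the 2 tables are not compared as expression.

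**Figure D1:**
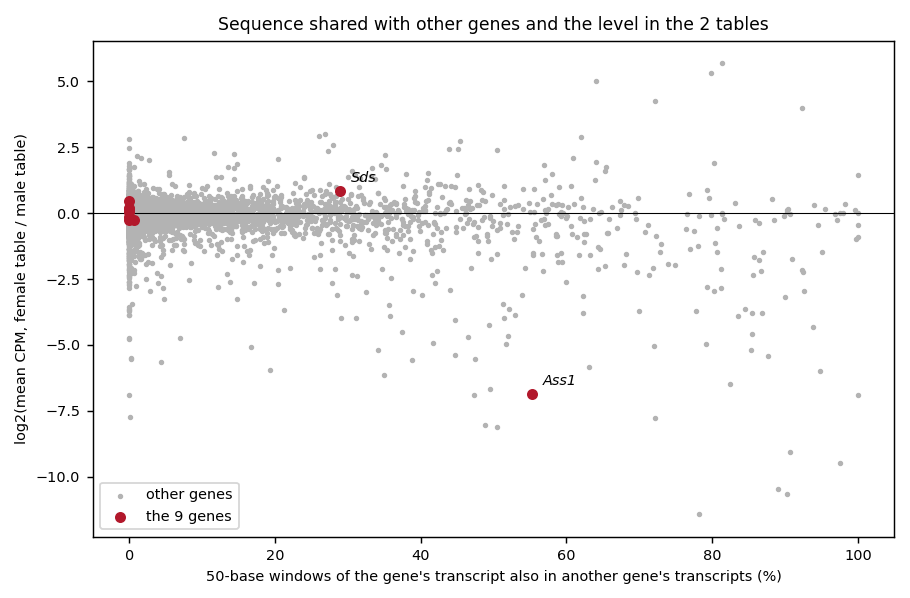
Each point is a gene of at least 10 CPM in the male table; x, the percentage of its 50-base windows also found in another gene's transcripts; y, log2 of its mean CPM in the female table over the male table. Ass1 sits at 55.3% and -6.86, while the other 8 genes (red) lie between -0.26 and 0.82.

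In GENCODE M21 (GRCm38) the genes of the cycle lie apart: Cps1 at chr1:67123026-67231259, Otc at chrX:10252305-10321024, Ass1 at chr2:31470207-31520672, Asl at chr5:130011258-130029247 and Arg1 at chr10:24915221-24927484. Asl and Arg1 are on the minus strand and the other 7 genes on the plus strand. Gls2 lies at chr10:128194457-128210004, Hal at chr10:93488768-93519304, Sds at chr5:120476526-120483932 and Tat at chr8:109990437-109999803. Sds overlaps Gm15690 (225 to 701 counts in males) and the end of Plbd2 on the opposite strand, and Gls2 overlaps the end of Spryd4 (514 to 1216 counts in the female table and 1449 to 1874 in the male table). Strandedness is not stated, so reads of these overlapping stretches cannot be told apart.

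Per length, Cps1 was the most abundant of these transcripts in males, at 958 RPKM (CPM per kilobase of gene, from the deposited gene lengths). Tat followed with 809 and Arg1 with 733 RPKM, and the ranges over the 6 mice of neighbours in this order overlapped. Ass1, at 440 RPKM, lay below all values of those 3 genes and above all values of Otc, at 145 RPKM. Asl, Sds, Gls2 and Hal averaged 94.0, 81.2, 78.5 and 73.0 RPKM, with overlapping ranges, and all 4 lay below Otc. In the 12 female libraries Arg1 led with 1019 RPKM, ahead of Cps1 with 801 and Tat with 729 RPKM, again with overlapping ranges. Otc (148), Sds (144), Asl (108), Gls2 (88.4) and Hal (61.2 RPKM) followed, each overlapping its neighbour. Sex and table are the same split, so the difference in order between the tables cannot be assigned to sex.

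**Figure D2:**
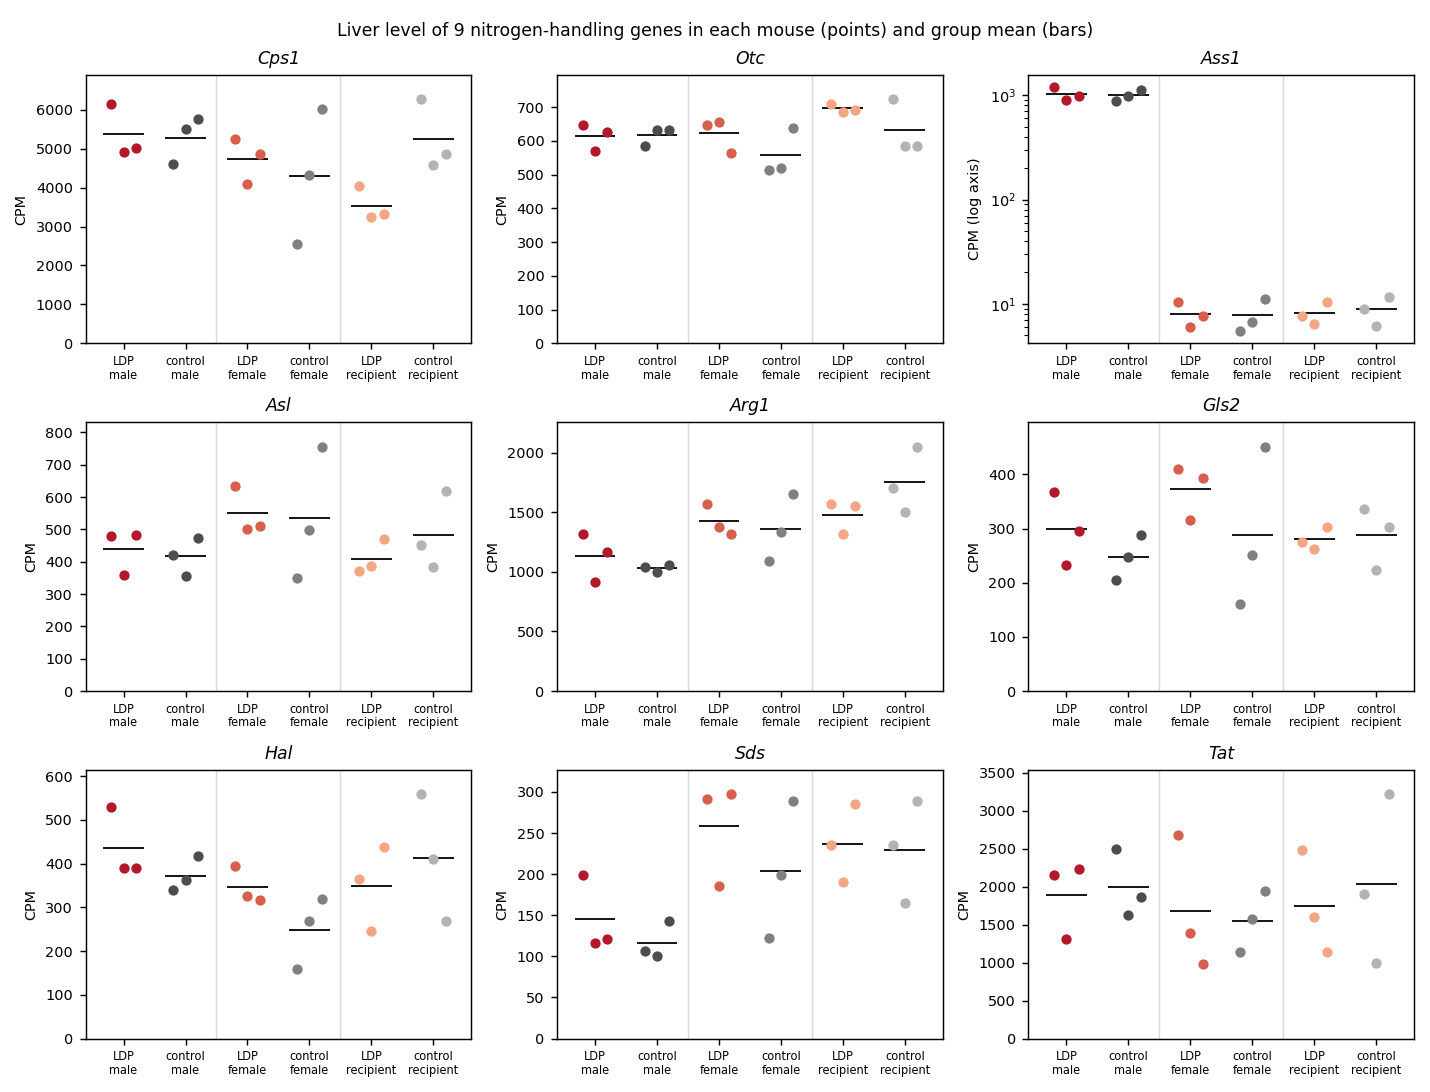
CPM of each gene in each mouse (points, in order of mouse number) with the group mean (bar), LDP groups left of their controls; the Ass1 axis is logarithmic. Among the 27 pairs of groups shown, Cps1 in recipients is the 1 pair whose points do not overlap.

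In males, none of the 9 genes differed between LDP and control livers beyond the spread between mice. Cps1, the mitochondrial enzyme that fixes ammonia into carbamoyl phosphate and sets the pace of the cycle, had 6151, 4918 and 5021 CPM in the LDP males, against 4593, 5494 and 5756 CPM in the control males. The groups overlapped, and LDP male 8 held the highest value. Sds, which releases ammonia from serine, showed the largest estimate, with 199.5, 115.7 and 121.1 CPM in the LDP males and 106.0, 100.6 and 142.6 CPM in the control males. Only LDP male 8 stood above the controls. The log2 change of Sds was 0.32 (SE 0.255, adjusted p = 0.921 by edgeR's quasi-likelihood test with Benjamini-Hochberg adjustment over all genes).

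The other urea cycle genes of the males lay closer to 0. Otc, which makes citrulline in mitochondria, averaged 615 ± 40.4 CPM in LDP males and 616 ± 26.2 CPM in control males (SD, n = 3 each), and its 95% interval of -0.19 to 0.18 on the log2 scale was the narrowest of the 9. Ass1 averaged 1031 ± 156 CPM in LDP males and 999 ± 127 CPM in control males. Asl, which splits argininosuccinate into arginine and fumarate, averaged 440 ± 70.9 and 418 ± 58.8 CPM in LDP and control males. Arg1, the cytosolic arginase that releases urea, averaged 1132 ± 201 CPM in LDP males against 1031 ± 30.2 CPM in control males, whose 3 values fell within the range of the LDP males. The log2 changes were 0.02 for Cps1 (95% interval -0.26 to 0.30), 0.05 for Ass1 (-0.25 to 0.34), 0.07 for Asl (-0.25 to 0.40) and 0.14 for Arg1 (-0.14 to 0.41).

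Among the amino acid enzymes of males, Gls2, the liver-type glutaminase, averaged 298 ± 67.9 CPM with LDP and 247 ± 41.2 CPM without. Hal, which converts histidine to urocanate and ammonia, averaged 437 ± 80.4 CPM in LDP males and 373 ± 39.7 CPM in control males. Tat, the tyrosine aminotransferase, averaged 1896 ± 513 CPM in LDP males and 1995 ± 445 CPM in control males. Their log2 changes were 0.27 for Gls2 (95% interval -0.18 to 0.73), 0.23 for Hal (-0.08 to 0.54) and -0.07 for Tat (-0.66 to 0.51). Of the 9 genes 7 had a positive and 2 a negative log2 estimate, with a median of 0.07. None passed (adjusted p from 0.920 to 0.996), none had an unadjusted p under 0.05 and none had groups that did not overlap. Over all 15438 genes tested, 1 gene passed (0.00648%; 42 genes in DESeq2), 5.23% had an unadjusted p under 0.05, 10.5% had groups that did not overlap and the median change was 0.00. Without LDP male 8, 5 estimates were positive and 4 negative, with a median of 0.01. Without LDP male 10 all 9 were positive (median 0.20), without control male 7 there were 8 and 1 (0.15), and without control male 5 there were 6 and 3 (0.12). All 10 Kupffer cell markers had a negative estimate in the same mice (median -0.28, none passing in edgeR and Cd5l at an adjusted p of 0.0282 in DESeq2). Of the 15 other periportal landmark genes 11 had a positive estimate (median 0.07). Of 18 pericentral landmark genes 13 had a negative one (median -0.08). None of these landmark genes passed in edgeR. The part of these marker levels in the values above was not tested.

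In females all 9 estimates were positive, none passed the test, and the split changed when single mice of either group were left out. Control female 29 had the lowest and control female 32 the highest value of its group for all 9 genes. Cps1 measured 5253, 4088 and 4848 CPM in the LDP females, against 2559, 4332 and 6024 CPM in the control females. The LDP values lie within the range of the controls. Hal measured 395.3, 326.1 and 316.3 CPM in the LDP females, against 158.5, 269.2 and 318.9 CPM in the control females. Only control female 32 reached the LDP range, just above LDP female 54. Hal had the largest estimate among the 9 genes in females, 0.48 (SE 0.238, adjusted p = 0.999 by edgeR).

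Gls2 had the next largest estimate in females, 0.37 (95% interval -0.46 to 1.20), with 410.4, 315.1 and 392.9 CPM in LDP females against 160.8, 251.3 and 451.4 CPM in control females. Its controls spanned 2.81-fold, so that all LDP values fell inside their range. Sds averaged 258 ± 62.7 CPM in LDP females and 203 ± 83.6 CPM in control females. Tat averaged 1682 ± 885 and 1553 ± 406 CPM in LDP and control females. Otc averaged 622 ± 49.5 CPM in LDP females against 557 ± 70.2 CPM in control females. Asl averaged 550 ± 74.5 CPM in LDP females and 535 ± 206 CPM in control females, and Arg1 averaged 1424 ± 132 CPM in LDP females and 1358 ± 283 CPM in control females. The Ass1 row averaged 8.07 ± 2.23 CPM in LDP females and 7.77 ± 2.95 CPM in control females. The log2 changes were 0.14 for Cps1 (95% interval -0.51 to 0.78), 0.16 for Otc (-0.14 to 0.46), 0.04 for Asl (-0.56 to 0.64), 0.07 for Arg1 (-0.31 to 0.45) and 0.34 for Sds (-0.42 to 1.105).

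The median estimate in females was 0.14, against 0.00 over all 12914 genes tested. All 9 adjusted p-values were 0.999, none of the 9 had an unadjusted p under 0.05, and none had groups that did not overlap. Over all genes 0% passed in edgeR, 4.51% had an unadjusted p under 0.05 and 9.19% had groups that did not overlap, while DESeq2 called 14 genes, none of them among the 9. Without control female 29, 4 estimates were positive and 5 negative, with a median of -0.07. Without LDP female 39, 5 were positive and 4 negative, with a median of 0.06, and without control female 30 there were 7 and 2 (median 0.12). Without control female 32 all 9 were positive, with a median of 0.40, as they were without LDP female 52 (0.23) or 54 (0.22). Over all 6 livers 10 of the 15 other periportal landmark genes had a positive estimate (median 0.10), and none passed in edgeR. In the same livers 17 of 19 pericentral landmark genes had a negative estimate (median -0.19). A positive one was found for 8 of 10 stellate and portal fibroblast markers (median 0.32) and all 5 tested mesothelial markers (median 1.34). None of these passed in edgeR, DESeq2 called Col3a1 and Col1a2, and their part in the values above was not tested. The difference of the LDP effect between females and males was tested directly. None of the 9 passed (adjusted p = 0.9999 for each by edgeR), and 0% of the 12747 genes did. The differences of log2 change ran from -0.06 for Arg1 to 0.25 for Hal.

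**Figure D3:**
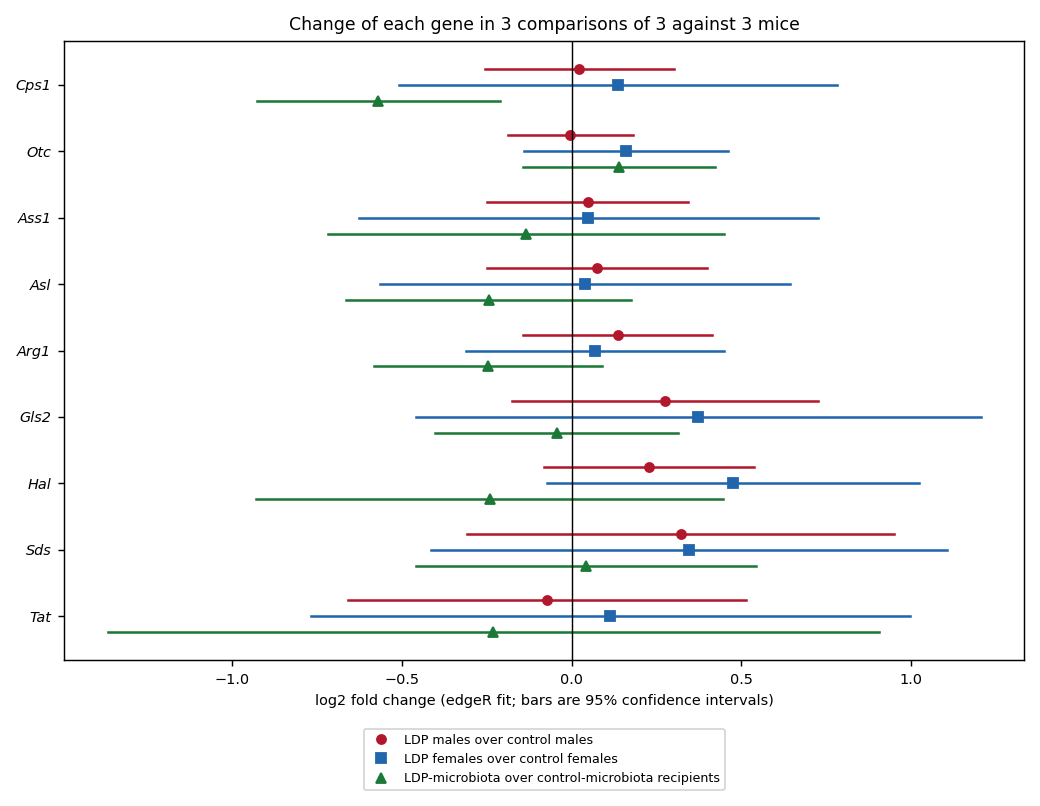
Log2 fold change (x) of each gene (y) in LDP males over control males, LDP females over control females and LDP-microbiota over control-microbiota recipients; bars are 95% confidence intervals. Cps1 in recipients, -0.57, is the 1 of 27 estimates whose interval excludes 0, and it did not pass after adjustment.

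In the recipients Cps1 was the gene that stood apart. It measured 4034, 3243 and 3315 CPM in recipients of LDP microbiota, against 6271, 4568 and 4857 CPM in recipients of control microbiota. All 3 LDP-microbiota livers lay below all 3 controls, a fold of 0.674 (95% interval 0.526 to 0.864; log2 change -0.57, SE 0.158). The unadjusted p of edgeR's quasi-likelihood test was 0.00577 and the p adjusted over all 12780 genes was 0.846, so the difference did not pass. DESeq2 gave an adjusted p of 0.241. It was the 1 of the 9 genes with an unadjusted p under 0.05 and the 1 whose groups did not overlap. Over all genes 1 passed (0.00782%; 19 in DESeq2), 5.11% had an unadjusted p under 0.05 and 11.8% had groups that did not overlap, so 1 gene in 9 is near that background. Leaving out each mouse in turn gave log2 changes of Cps1 between -0.68 and -0.43.

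The other cycle genes of the recipients overlapped between groups. Arg1 measured 1570, 1317 and 1552 CPM in recipients of LDP microbiota and 1703, 1502 and 2051 CPM in recipients of control microbiota. Its 2 highest LDP-microbiota livers passed the lowest control. Asl averaged 409 ± 53.9 CPM in recipients of LDP microbiota against 484 ± 121 CPM in recipients of control microbiota. Otc went the other way, at 696 ± 11.7 CPM in recipients of LDP microbiota and 631 ± 80.4 CPM in recipients of control microbiota, where recipient 1 held the highest value of all. The Ass1 row averaged 8.12 ± 2.02 CPM in recipients of LDP microbiota and 8.93 ± 2.71 CPM in recipients of control microbiota. The log2 changes were -0.25 for Arg1 (95% interval -0.58 to 0.09), -0.24 for Asl (-0.66 to 0.17) and 0.14 for Otc (-0.14 to 0.42).

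Gls2, Hal, Sds and Tat also overlapped in recipients. Gls2 averaged 280 ± 20.3 CPM with LDP microbiota and 288 ± 57.8 CPM with control microbiota. Hal averaged 350 ± 97.9 CPM with LDP microbiota against 413 ± 145 CPM with control microbiota. Sds averaged 237 ± 47.9 CPM with LDP microbiota and 230.0 ± 62.3 CPM with control microbiota. Tat ranged widest, with 2480, 1595 and 1143 CPM in recipients of LDP microbiota and 1902, 991.0 and 3220 CPM in recipients of control microbiota. The 95% interval of its fold ran from 0.388 to 1.87, the widest of the 9 on the log2 scale. The log2 changes of Gls2, Hal and Sds were -0.04 (-0.40 to 0.31), -0.24 (-0.93 to 0.45) and 0.04 (-0.46 to 0.54). Of the 9 genes 2 had a positive and 7 a negative estimate, with a median of -0.23, against -0.01 over all genes. Without control recipient 7, 5 estimates were positive and 4 negative, with a median of 0.00. Without control recipient 1, 4 were positive and 5 negative, with a median of -0.14. Without LDP recipient 5 there were 3 and 6 (-0.04), and without control recipient 3 there was 1 positive and 8 negative (-0.34).

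All 9 genes had a lower log2 change in recipients than in treated females, with a median difference of -0.30. The test of that difference passed for none of the 9 (adjusted p of at least 0.788) and for 0% of the 13295 genes; 790 genes had an unadjusted p under 0.05, and DESeq2 called 14. The largest differences were -0.70 for Hal (95% interval -1.64 to 0.24) and -0.69 for Cps1 (-1.45 to 0.06). Single mice moved the median and the count: it was -0.09 with 7 of 9 negative without control recipient 7, -0.12 with 7 negative without control female 29, and -0.20 with 6 negative without LDP female 39. Without control female 32 all 9 were negative with a median of -0.60, without control recipient 3 all 9 with -0.48, and without LDP female 52 there were 8 with -0.45.

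Markers of cell zones and cell types were set beside the recipients' Cps1 values. The summed level of 19 pericentral landmark genes, which mark hepatocytes around the central vein, was 21600 to 25638 CPM in recipients of LDP microbiota and 19379 to 20315 CPM in recipients of control microbiota, without overlap. Most of that sum was Cyp2e1, at 15865 to 17427 CPM with LDP microbiota and 13400 to 14626 CPM with control microbiota. The other 18 genes summed to 5735 to 8211 CPM with LDP microbiota and 5400 to 6881 CPM with control microbiota, and overlapped. Of the 19 genes 11 had a higher and 8 a lower estimate and none passed. Aldh1a1 (log2 change 0.76, adjusted p = 0.846 by edgeR) had the smallest p, and Slc13a3 followed with a change of -0.46. The 15 other periportal landmark genes summed to 12858 to 13121 CPM with LDP microbiota and 11677 to 14278 CPM with control microbiota, and 8 were higher and 7 lower. The 9 measured hepatocyte markers summed to 170777 to 210652 CPM with LDP microbiota and 136204 to 179825 CPM with control microbiota. Most of that sum was Alb, at 127418 to 154390 CPM with LDP microbiota and 95563 to 126869 CPM with control microbiota. The other 8 genes summed to 43359 to 56261 CPM and 40641 to 52956 CPM, and overlapped. Of the 9 markers 6 had a higher and 3 a lower estimate, with a median of 0.03, and none passed in edgeR. Among them Fabp1, the liver fatty acid binding protein, had a log2 change of 0.81 (adjusted p = 0.777 by edgeR and 0.000428 by DESeq2). The part of these levels in the Cps1 values was not tested.

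Genes that feed or drain the cycle were described by lists. Of 23 urea cycle partners and ammonia genes (transporters, transaminases, glutamate dehydrogenase, glutamine synthetase and others), 21 were tested in males, 21 in females and 22 in recipients, and none passed in those 3 comparisons. The higher and lower estimates numbered 9 and 12 in LDP males, 9 and 12 in LDP females, and 11 and 11 in recipients of LDP microbiota, with medians of -0.02, -0.10 and -0.00. The smallest p in recipients belonged to Slc7a2, a carrier of arginine and lysine, with 482 ± 92.3 CPM with LDP microbiota and 736 ± 201 CPM with control microbiota (log2 change -0.61, SE 0.217, adjusted p = 0.846 by edgeR); the groups overlapped. In males it belonged to Slc25a15, the ornithine carrier of mitochondria (-0.17, adjusted p = 0.920 by edgeR). In females it belonged to Glul, the pericentral glutamine synthetase (-0.47, adjusted p = 0.999 by edgeR).

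The enzymes downstream of Hal had positive estimates in each of the 3 LDP comparisons, with no gene passing. All 3 of these (Uroc1, Amdhd1 and Ftcd) were positive in males (median 0.09), in females (median 0.13) and in recipients (median 0.13). In recipients Hal itself was at -0.24. Of 7 phenylalanine and tyrosine genes around Tat, 3 had a positive estimate in LDP males, 5 in LDP females and 6 in recipients of LDP microbiota. Of 10 tested serine, threonine and glycine genes around Sds, 7, 6 and 8 had a positive estimate in the same 3 comparisons. Among 25 genes of other amino acid breakdown the counts were 14, 15 and 15. None of these genes passed in any of the 3. Over all genes tested, 7825 of 15438 estimates were positive in LDP males, 6571 of 12914 in LDP females, and 6188 of 12780 with LDP microbiota. Acmsd, a tryptophan pathway enzyme, had 7.22 ± 1.11 CPM in recipients of LDP microbiota and 10.6 ± 2.35 CPM in recipients of control microbiota (log2 change -0.56, adjusted p = 0.846 by edgeR). Its groups did not overlap, as was so for 11.8% of all 12780 genes in recipients. Of the 25 genes of other amino acid breakdown, 1 had an unadjusted p under 0.05 by edgeR in recipients, against 5.11% of all genes. Of 15 glucagon and glucocorticoid responsive genes the metallothioneins Mt1 and Mt2 had the smallest p in males, with log2 changes of 1.19 and 1.60 (adjusted p = 0.920 for both by edgeR), and none of the list passed in these 3 comparisons. None of the 20 regulators and hormone receptors passed either.

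Between the experiments the 9 genes also stayed without a call. Recipients (6 Swiss Webster livers) were compared with C57BL6J females (6 livers), a split that joins strain, birth without microbes and experiment, which cannot be told apart. Of 13295 genes 3556 passed (26.7%), and of the 9 genes none did, with 6 estimates above 0 and 3 below (3 above and 6 below without control recipient 7, 8 above and 1 below without control female 32). The nearest was Otc, at 0.17 (95% interval -0.02 to 0.36, adjusted p = 0.176 by edgeR). Hal was at 0.37, Arg1 at 0.21 and Asl at -0.28, each with an interval that includes 0. Without control female 29 the adjusted p of Asl was 0.0681, the lowest of any gene of the 9 when a mouse was left out.

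Some other genes of nitrogen handling passed in the same comparison, where 26.7% of all genes did. Of 22 tested urea cycle partners 4 passed, all higher in the recipients, a smaller share than over all genes, and by estimate 12 were positive and 10 negative. Arg2, the mitochondrial arginase, averaged 2.03 ± 0.795 CPM with LDP microbiota and 1.44 ± 0.158 CPM with control microbiota, against 0.353 ± 0.0371 CPM in LDP females and 0.139 ± 0.139 CPM in control females (log2 change 2.94, SE 0.346, adjusted p = 5.09e-05 by edgeR), a low level beside that of Arg1. Rhbg, an ammonia channel of pericentral cells, was higher by 0.87 (adjusted p = 0.0231 by edgeR) and Glud1, glutamate dehydrogenase, by 0.32 (adjusted p = 0.0285 by edgeR). Gldc of the glycine cleavage system was higher by 1.27, and 5 of 10 genes of its list passed, all higher. Bckdhb of branched-chain amino acid breakdown was higher by 0.95, and Ftcd, the last enzyme of histidine breakdown listed, by 0.38. In their lists 5 of 25 genes of other amino acid breakdown and 1 of 3 histidine genes passed. Of the phenylalanine and tyrosine genes 1 of 7 passed, and all of these were higher. Markers of other cells and of liver zones moved in this comparison too. Of 10 Kupffer cell markers 6 passed and were lower in the recipients, as were 6 of 10 stellate and portal fibroblast markers. Among the 15 other periportal landmark genes 5 passed as higher and 2 as lower. Among the 19 pericentral landmark genes 4 passed as higher and 2 as lower. The part of these markers in the values above was not tested.

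Apart from Otc, the genes varied more between mice of the same group than the median gene did. The SD within groups on the log2(CPM + 0.5) scale was 0.58 for Tat, 0.42 for Sds, 0.38 for Gls2 and for Hal, 0.355 for Ass1, 0.32 for Asl, 0.31 for Cps1, 0.20 for Arg1 and 0.12 for Otc. Among 7047 genes above 10 CPM the median SD was 0.145. Tat exceeded 98.8% of those genes, Cps1 92%, Arg1 76.1% and Otc 35%. Otc was thus the steadiest of the 9, and its highest value was 1.41-fold its lowest over the 12 female libraries, against 3.53-fold for Hal and 3.29-fold for Tat.

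The same mice tended to be high or low for several genes. LDP male 8 was the highest of its group for 7 of the 9 genes and LDP male 10 the lowest for 8. Control male 7 was the highest for 7, and LDP female 39 for 7. Recipient 5 of LDP microbiota was the lowest for 7, and recipient 3 of control microbiota the lowest for 8. Averaged over the 8 genes other than Ass1, control female 29 lay at -0.496 and control female 32 at 0.475 from their group mean on the log2 scale, the widest deviations of the 18 mice. In the same 2 mice the mean of the other periportal landmark genes lay at -0.12 and 0.10, of the pericentral genes at 0.03 and 0.00, and of the hepatocyte markers at 0.19 and -0.23. Other lists of nitrogen handling lay low and high with the 8 genes. The urea cycle partners were at -0.16 and 0.18, the enzymes downstream of Hal at -0.20 and 0.21, and other amino acid breakdown at -0.18 and 0.21. The genes around Tat were at -0.13 and 0.20, and those around Sds at -0.13 and 0.17.

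**Figure D4:**
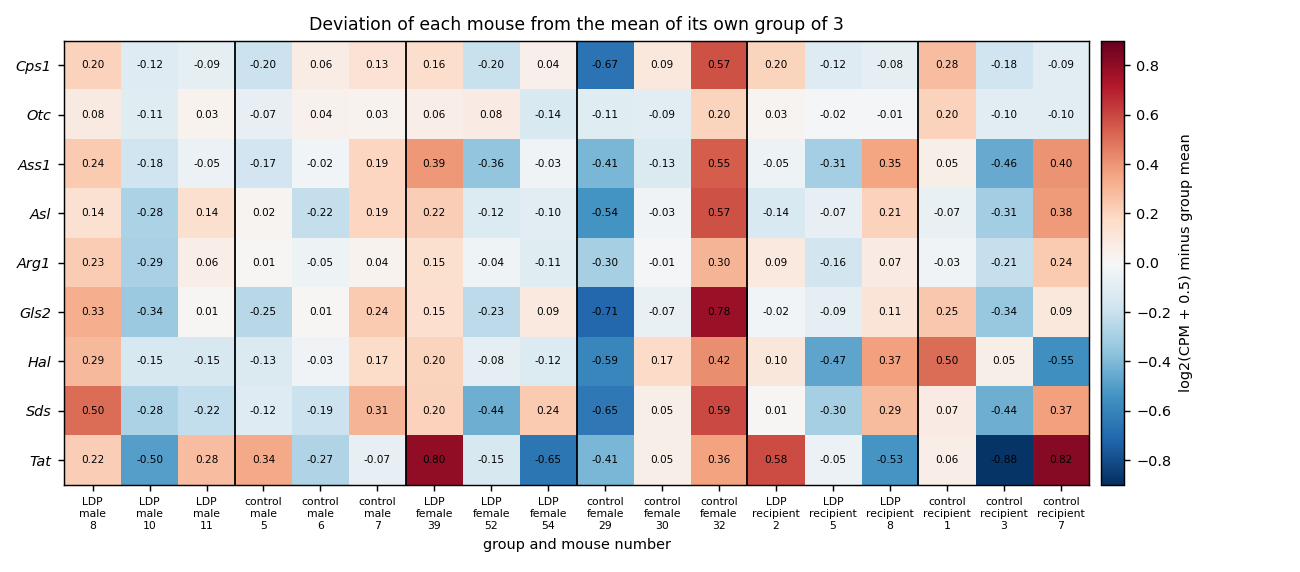
Deviation of each mouse (columns) from the mean of its group of 3, in log2(CPM + 0.5), for each gene (rows), LDP groups left of their controls. Control females 29 and 32 are low and high in all 9 rows, and the row of Otc holds the smallest deviations.

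Over the 18 livers with group means removed, the 28 pairs of genes without Ass1 had a median Pearson r of 0.65 (range 0.05 to 0.91; median Spearman rho 0.63), and all 28 were above 0. For all pairs among 10387 genes the median r was 0.00 and 8.67% were above 0.5, against 19 of the 28. Those genes averaged at least 1 CPM in each table and were not matched to the pairs in level or spread, so the shares come from unlike sets. The median was 0.72 over the 6 male livers and 0.65 over the 12 female livers. Without control females 29 and 32, left out after their values were seen, it was 0.49, with 26 of 28 above 0. These values are descriptions: the points share libraries and depth, and mice may share a cage.

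Among the 28 pairs without Ass1 the highest were Gls2 with Cps1 at 0.91, Asl with Arg1, which act in turn in the cycle, at 0.89, and Gls2 with Sds at 0.88. Without control females 29 and 32 these were 0.786, 0.828 and 0.846, so their order is not fixed. The least alike were Hal and Tat, at 0.05. Although its counts in the female table were low, the Ass1 row followed Sds (0.91) and Asl (0.87). Otc, the X-linked gene of the set, ran from 0.38 with Tat and with Sds to 0.69 with Gls2.

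**Figure D5:**
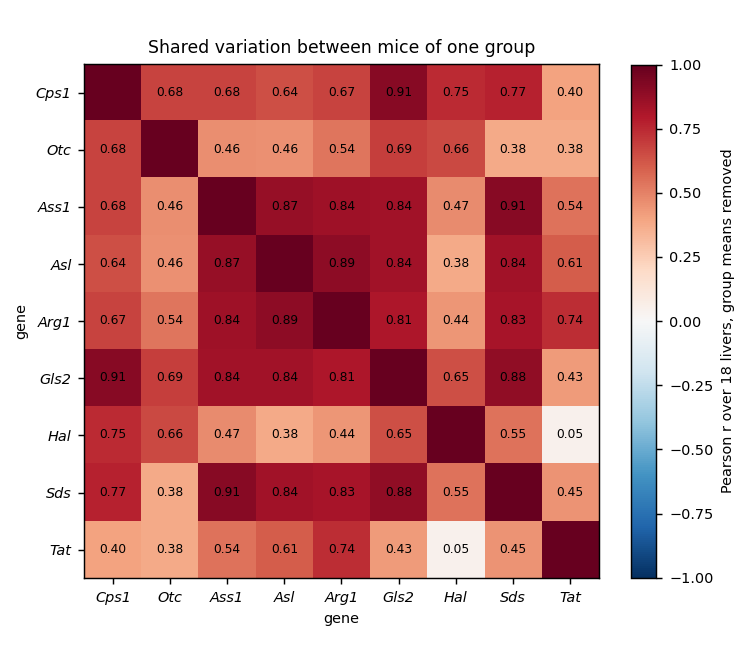
Pearson r between genes over 18 livers after the mean of each group was removed, with the value in each cell. All pairs are above 0, from 0.05 for Hal with Tat to 0.91 for Cps1 with Gls2.

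Likeness to each enzyme by this measure was ranked over 10386 other genes. Cps1 was closest to Slc7a2 (0.92) and Gls2 to Dbt (0.92), a subunit of the branched-chain keto acid complex. Asl and Arg1 both had Gnmt, glycine N-methyltransferase, among their 3 closest (0.90 and 0.86). Tat was closest to Pim3 (0.90) and Slc25a15 (0.895), Sds to Zfp952 (0.91) and Otc to Ntan1 (0.895). Hal was closest to Mettl22 (0.88). The mean of the 8 genes without Ass1 had an r of 0.85 with the mean of the 25 genes of other amino acid breakdown (0.80 without control females 29 and 32), of 0.78 with the urea cycle partners and of 0.58 with the other periportal landmarks (0.36 without those 2 mice). It was 0.18 with the pericentral landmarks and -0.60 with the hepatocyte markers (-0.30 without those 2 mice). Single genes differed in this. With the other periportal landmarks Tat had an r of 0.00 and Otc of 0.20, against 0.54 and 0.50 with the pericentral landmarks. The other genes without Ass1 ran from 0.49 (Arg1) to 0.775 (Sds) with the periportal list. With the pericentral list they ran from -0.22 (Sds) to 0.18 (Arg1). Tat had an r of 0.74 with the glucagon and glucocorticoid responsive genes, against -0.40 for Hal. Hal had 0.87 with the enzymes downstream of it, against 0.07 for Tat, and the rest ran from 0.58 (Arg1) to 0.77 (Gls2). With the phenylalanine and tyrosine genes Tat had 0.59 and Otc 0.88. With the serine, threonine and glycine genes Sds had 0.56 and Otc 0.74. Tat and Sds were thus not the genes most like the lists around them. The lists are not fully separate. As defined, the other periportal landmarks share Uroc1, Gldc and Pck1 with the histidine, glycine and glucagon lists. The pericentral landmarks share Glul, Oat, Slc1a2 and Rhbg with the urea cycle partners.

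Promoter windows from RefSeq (GRCm38.p6; 250 bases before to 50 after the start) were at hand for Otc, Ass1, Hal and Tat, 4 of the 9 genes, among 32851 windows. They were searched on both strands for TGACGTCA (cAMP response element, in 1.79% of windows), its shorter form TGACG (20.8%), TTGCNNAA (C/EBP, 10.8%), AGAACA (one arm of the glucocorticoid receptor element, 19%) and TATAAA (13.6%); TGACG is part of TGACGTCA. Of these 4 windows only that of Hal held any of them. Sites outside the windows were not searched, and a link between such matches and likeness over mice was not tested. Hal and Tat, the pair least alike over mice, are shown up to their starts, with the matches of Hal in capitals: TTGCNNAA begins 150 bases before the start and TATAAA, read on the minus strand, 28 bases before it. The stretches are chr10:93488518-93488767 for Hal and chr8:109990186-109990435 for Tat, both on the plus strand.
Hal: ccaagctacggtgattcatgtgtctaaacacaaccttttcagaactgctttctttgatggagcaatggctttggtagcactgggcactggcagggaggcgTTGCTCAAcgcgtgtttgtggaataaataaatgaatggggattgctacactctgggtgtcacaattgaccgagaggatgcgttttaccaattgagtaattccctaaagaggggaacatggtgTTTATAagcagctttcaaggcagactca
Tat: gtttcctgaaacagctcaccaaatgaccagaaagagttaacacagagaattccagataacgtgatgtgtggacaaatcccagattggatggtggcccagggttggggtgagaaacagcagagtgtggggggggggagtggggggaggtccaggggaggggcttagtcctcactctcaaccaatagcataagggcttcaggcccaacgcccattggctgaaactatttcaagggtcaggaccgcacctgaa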

How the data were processed

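The authors deposited raw counts per gene, 1 column per mouse and no pooling, in a table of 6 males (versioned Ensembl IDs with a gene length in bases) and a table of 12 females (gene symbols). The kits were RNeasy Mini for RNA and TruSeq v2 for libraries, per the labels' protocols. The genome was mm10, and the tools listed without roles are DESeq, featureCounts 1.4.3-p1, HTSeq 0.5.3p9 and STAR 2.3.0e, per the submitters' processing notes. Of the 38924 male IDs 37607 (96.6%) had a symbol in GENCODE M21, and 20058 names are in both tables. No column lacked a sample (0), and 0 pairs of libraries were copies.

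Each comparison used its own 6 libraries, fitted over all genes (filterByExpr, minimum count 10 and total 15; TMM; edgeR 4.0.16 under R 4.3.3, robust quasi-likelihood; Benjamini-Hochberg; threshold 0.05). Differences of effects and recipients against C57BL6J females used 12 libraries and 1 coefficient per group. SE and intervals come from the F statistic. RPKM uses the male table's gene lengths for both tables, an approximation for female symbols. Alternatives were DESeq2 1.42.0, other scalings and filters, a fit that is not robust, a shared spread and leaving out each mouse. The scripts were tested on simulated data. All 9 genes are named. Of each other list up to 3 genes that passed, or 2 of smallest p, were eligible to be named. The genes and lists were chosen with earlier results of these data known. Counts set the precision of each library and mouse-to-mouse spread that of each group.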

Additional observations from a re-analysis of the deposited data

How the results depend on the processing

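The 9 genes stayed without a call in all 6 comparisons under every alternative run (DESeq2, other scalings and filters, a fit that is not robust, a shared spread, each mouse left out). Their signs depended on single mice. Leaving out each mouse in turn, the log2 change in LDP males over control males ranged for Cps1 from -0.087 to 0.088, for Otc from -0.042 to 0.043, for Ass1 from -0.08 to 0.15, for Asl from -0.028 to 0.20 and for Tat from -0.21 to 0.13. In LDP females over control females the ranges were -0.13 to 0.46 for Cps1, -0.18 to 0.40 for Ass1, -0.19 to 0.38 for Asl, -0.067 to 0.24 for Arg1 and -0.39 to 0.39 for Tat. In recipients of LDP over control microbiota they were -0.34 to 0.11 for Ass1, -0.19 to 0.074 for Gls2, -0.46 to 0.029 for Hal, -0.15 to 0.25 for Sds and -0.57 to 0.28 for Tat. For females minus males they were -0.15 to 0.44 for Cps1, -0.22 to 0.36 for Ass1, -0.26 to 0.31 for Asl, -0.20 to 0.11 for Arg1, -0.19 to 0.59 for Gls2, -0.24 to 0.37 for Sds and -0.30 to 0.46 for Tat. For recipients minus females they were -0.11 to 0.11 for Otc, -0.52 to 0.069 for Ass1 and -0.68 to 0.17 for Tat. For recipients over C57BL6J females they were -0.20 to 0.091 for Cps1, -0.013 to 0.28 for Ass1, -0.35 to 0.035 for Gls2, -0.10 to 0.20 for Sds and -0.025 to 0.47 for Tat. Otherwise only values near 0 changed sign: Otc in males (0.0011 with upper quartile scaling, 0.0019 keeping genes averaging 1 CPM or more) and Ass1 in females minus males (-0.0018 in DESeq2, -0.0031 with relative log expression).

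The number of genes called among all tested moved more. In males it was 42 in DESeq2, 2 without a filter, 0 with the spread shared over 12 libraries and 0 to 66 with a mouse left out, the 66 without LDP male 11. In females it was 14 in DESeq2, 1 without a filter and 0 to 1 with a mouse left out. In recipients it was 19 in DESeq2, 2 without a filter, 3 with a shared spread and 0 to 4 with a mouse left out. It was 0 to 1 for females minus males, and 14 in DESeq2 and 0 to 3 with a mouse left out for recipients minus females. For these results the cause was not tested. No paired analysis was made because the labels name no cage, litter or donor by which mice could be paired. With 3 mice a group the 95% intervals of fold change in the 3 comparisons of LDP with control groups reached down to 0.388 (Tat in recipients) and up to 2.31 (Gls2 in females); in the differences of effects they reached 0.283 and 2.46, both for Tat, so changes inside such intervals could not be resolved, and the low counts of Ass1 in the female table limit that row further.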
